A study of Mus musculus with 4 samples.

Results

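Among the cells sorted from the irradiated adult intestine, 183 carried transcripts of Clu, Anxa3 and Ly6a, which mark a state of the gut epithelium seen after injury. These cells were chosen by their own readout: at least 2 of the 3 genes detected, at least 4 UMIs (tags that count captured RNA molecules once each) summed over the 3, at least 500 genes and at most 20% mitochondrial UMIs. They made up 5.75% (exact 95% Clopper-Pearson interval 4.96 to 6.61) of the 3184 cells that passed the last 2 criteria in the irradiated library, and of 15800 such cells in the whole series 183 are described here. Epcam, the epithelial adhesion molecule, was detected in 178 of them. The cells they are compared with are the other 2770 irradiated cells with at least 1 Epcam UMI. In the unirradiated adult library 0 of 3788 cells met the rule, which allows a share of up to 0.0792%.

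Every library came from Bmi1-GFP mice, in which green fluorescent protein reports transcription of the Bmi1 locus, a Polycomb gene. Sorted intestinal epithelial cells were measured by droplet sequencing of RNA 3' ends. There were 4 groups of 1 library each: embryos at E12.5 or at E17.5, unirradiated adults, and adults that had been irradiated, so no comparison between them has a replicate check and no p-value is given. The labels give neither the dose of radiation nor the time after it, and they state neither how many animals were pooled nor their age beyond adult. All groups share the reporter allele. Intervals below cover counting error only, and reads from 1 library cannot separate the condition from the library.

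After loss of dividing cells, the crypts of the small intestine can be rebuilt by epithelial cells that switch on genes of the fetal gut. Clu encodes clusterin, a secreted chaperone, and marks a rare cell state that expands after radiation. Anxa3 encodes annexin A3, a calcium-dependent membrane-binding protein, and Ly6a encodes Sca-1, a surface protein linked to the membrane by a lipid anchor. S100a6 encodes a small calcium-binding protein that is often listed with them. This state has been tied to the transcription co-activators YAP and TAZ, which act through TEAD factors. In the GRCm38 build, Clu lies on chromosome 14 from 65968483 to 65981547 (plus strand), Anxa3 on chromosome 5 from 96793339 to 96845966 (plus strand), Ly6a on chromosome 15 from 74994877 to 74998031 (minus strand) and S100a6 on chromosome 3 from 90612882 to 90624181 (plus strand).

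The promoters of 3 genes that were among the most enriched in these cells (below) are shown because 2 known response elements can be read in them. Each spans 250 bases before to 50 after a RefSeq start in GRCm38.p6, is printed 5' to 3' on the gene's strand, and has in capitals each match to the TEAD motif GGAATG or the AP-1 motif TGANTCA on either strand. The Anxa1 promoter (chr19:20390622-20390921, minus strand) holds a reverse TEAD match, the Kcnn4 promoter (chr7:24370013-24370312, plus strand) a forward TEAD match, and the first Il1rn promoter (chr2:24336610-24336909, plus strand) an AP-1 match.
Anxa1: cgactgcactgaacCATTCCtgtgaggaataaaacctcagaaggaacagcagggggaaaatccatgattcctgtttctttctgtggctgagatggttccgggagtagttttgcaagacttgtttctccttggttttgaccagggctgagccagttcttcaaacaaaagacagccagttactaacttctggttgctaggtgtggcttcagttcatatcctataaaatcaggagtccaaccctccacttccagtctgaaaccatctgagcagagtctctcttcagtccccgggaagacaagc
Kcnn4: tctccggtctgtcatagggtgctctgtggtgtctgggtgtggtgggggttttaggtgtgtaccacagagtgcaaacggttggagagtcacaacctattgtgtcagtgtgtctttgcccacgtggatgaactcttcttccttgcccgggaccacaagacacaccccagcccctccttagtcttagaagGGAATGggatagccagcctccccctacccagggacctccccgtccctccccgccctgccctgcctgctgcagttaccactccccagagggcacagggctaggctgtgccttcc
Il1rn: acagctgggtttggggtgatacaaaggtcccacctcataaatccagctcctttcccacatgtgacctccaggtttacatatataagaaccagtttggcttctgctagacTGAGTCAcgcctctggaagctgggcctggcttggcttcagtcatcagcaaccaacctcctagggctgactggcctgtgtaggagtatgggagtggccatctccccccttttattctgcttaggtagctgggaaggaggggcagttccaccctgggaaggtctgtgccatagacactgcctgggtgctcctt
Of the 15 most enriched genes, 10 matched the RefSeq table. TEAD letters stood in a promoter of 3 of the 10 (Kcnn4, Anxa1 and Il1rn), against 16.6% of all 27025 genes in the table. AP-1 letters stood in 2 of the 10 (Il1rn and Clca3b), against 8.97%. The interferon response element (GAAA, 2 free bases, GAAA) stood in 0 of the 10, against 3.99%. The motifs do not overlap each other, and a match is only a description of these letters.

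All 3 rule genes were present in 109 of the 183 cells, Anxa3 and Ly6a without Clu in 41, Clu and Ly6a without Anxa3 in 21, and Clu and Anxa3 without Ly6a in 12. Clu ran from 0 to 165 UMIs per cell with a median of 2, Anxa3 from 0 to 87 with a median of 4, and Ly6a from 0 to 253 with a median of 5. The sum over the 3 genes had a median of 15 and a highest value of 447. Levels summed over the cells, in counts per 1000000 UMIs (CPM) with exact 95% Poisson intervals, were 258 (246 to 271) for Clu, 281 (268 to 294) for Anxa3 and 542 (524 to 560) for Ly6a. The other Epcam cells held 6.01, 9.33 and 23.1 CPM of the same genes. The rule fixed these differences, so they are a description.

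At the edge of the rule, 29 cells with at least 2 of the genes had 3 UMIs over the 3 and were left out, while 13 cells had 4 UMIs and 20 had 5. S100a6, which the rule did not use, stood at 856 CPM in the cells with 3 UMIs, 1461 in those with 4, 2293 in those with 5 and 3895 in the 150 cells with 6 or more. Cells just inside the rule thus held less S100a6 than cells far inside it. Over all 183 cells S100a6 was 3824 CPM (3777 to 3872), against 725 (716 to 734) in the other Epcam cells and 413 (406 to 420) in adult Epcam cells. The other Epcam cells outside the clusters scoring highest for enteroendocrine, tuft or Paneth markers (272 cells, described below) held 2120 CPM, which reduces the log2 ratio from 2.40 to 0.85. S100a6 was detected in 173 of the 183 cells, and in the 21 cells with Clu and Ly6a only it was 519 CPM.

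Depth moved with the rule. The 183 cells had a median of 34042 UMIs (1015 to 170645) and 4960 genes, against 9270.5 UMIs in the other Epcam cells. Their median mitochondrial share was 5.09%, against 5.13% over all kept irradiated cells. When every cell was reduced by random draw to 2000 UMIs (thinning), 44 of 2679 irradiated cells met the rule (1.64%, 1.20 to 2.20) and 0 of 3102 adult cells did, a limit of 0.0967%. Thinning left out 505 irradiated and 686 adult cells. Before thinning, 3 adult cells held 2 of the genes, with at most 2 UMIs, and 8 adult cells reached 4 UMIs from 1 gene alone. The libraries shared few barcodes with the irradiated one (6 with E12.5, 8 with E17.5 and 7 with the adult), and 0 of these were cells of the rule. Doublet scores placed 6 of the 183 cells (3.28%) among the putative doublets, against 4.81% of all kept irradiated cells.

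**Figure D1:**
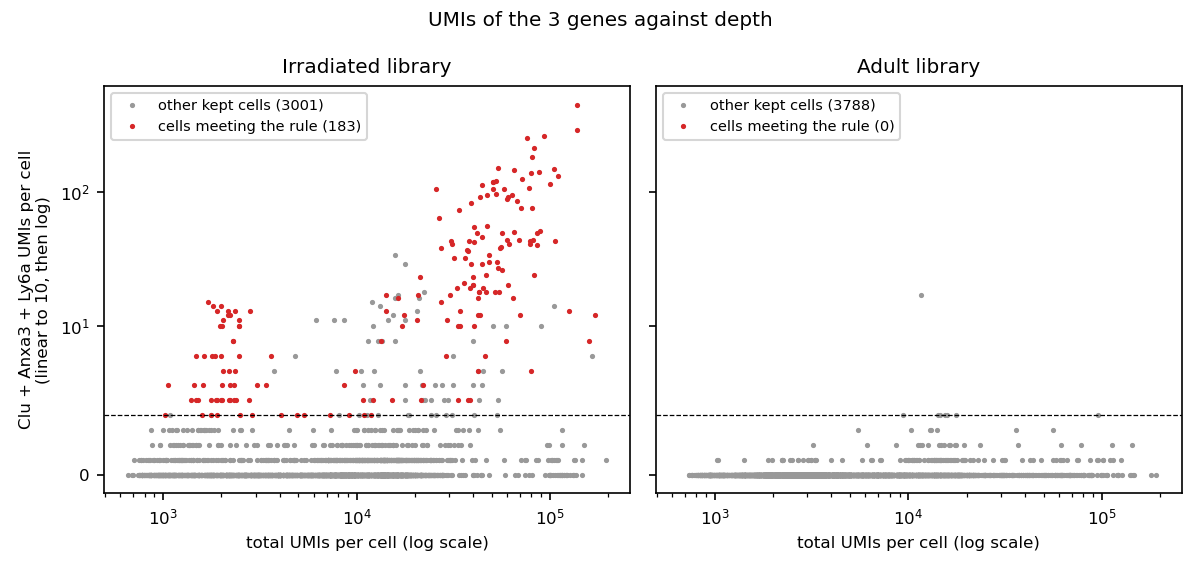
UMIs of Clu, Anxa3 and Ly6a summed per cell (y axis, linear to 10 and logarithmic above) against the cell's total UMIs (x axis, log scale) for each kept cell of the irradiated and adult libraries. Red points are the 183 cells that met the rule, in a shallow and a deep group; 0 adult cells met it, and the dashed line is at 4 UMIs.

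Clustering of the irradiated library without Clu, Anxa3 and Ly6a put 130 of the 183 cells (71.0%) into 2 of 19 clusters, which together held 179 cells, 5.62% of all kept cells. Cluster 11 held 82 of them among its 102 cells, with a median of 49347.5 UMIs per cell. Its leading genes included Anxa8, Il33, Krt15, Mpzl2, Kcnn4 and Emp1. Cluster 15 held 48 among 77 cells, with a median of only 1859 UMIs, and was led by Lama3, Ly6d, Lgals3, Serpinb5, Cyba and Anxa2. Cluster 15 met no class of the marker lists. Cluster 11 scored highest for enterocyte markers, yet its 82 cells of the rule held 90.7 CPM of Apoa1, a lipid-carrier gene of enterocytes, against 5879 in its other 20 cells, so it is called by its number. Those 20 cells held 0 UMIs of Ly6a.

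The remaining cells of the rule lay elsewhere, with 20 in a goblet-like cluster and 33 over other clusters. Of these 33, 22 were in clusters scoring highest for enteroendocrine markers, 1 in a tuft-like cluster, 3 in the Paneth-like cluster and 7 in unnamed clusters. The 20 goblet-like cells held 87573 CPM of Zg16 and 6595 of Muc2, both goblet cell products. The 33 cells together held 136538 CPM of Defa24, a Paneth cell defensin, but 120572 of its 121113 UMIs were in the 3 cells of the Paneth-like cluster, and the other 30 held 1254 CPM. S100a6 was 4398 CPM in the cluster 11 cells, 7398 in the cluster 15 cells, 3620 in the goblet-like cells and 613 in the 33 others. The first 3 groups thus stood above the 725 CPM of the other Epcam cells and carried the fourth marker of the label, and the last group stood below it, also without the 3 Paneth-like cells (688 CPM). Within the last group S100a6 was 550 CPM in the 22 cells of enteroendocrine-scoring clusters and 2558 in the 7 of unnamed clusters.

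The other Epcam cells were mostly of the endocrine kind, since 87.1% of them lay in clusters scoring highest for enteroendocrine or tuft markers. Relative to them, 1776 of 13256 genes measured (13.4%) were at least 2-fold higher in the cells of the rule and 2444 (18.4%) at least 2-fold lower. Without the cells of the rule that held 3 or more G2/M UMIs before thinning, 1004 genes were at least 2-fold higher. The median of all genes was -0.18 on the log2 scale of (CPM + 1), the scale of every log2 ratio below. Because the comparison cells are of another kind, the main lists are also given against 2 further sets. One is the 272 other Epcam cells outside the endocrine, tuft and Paneth clusters (median 1489.5 UMIs, all genes 0.19), where 10.8% of all genes were at least 2-fold higher and 5.0% lower. Its 2344929 UMIs came largely from goblet-like and cluster 11 cells that did not meet the rule. With or without Epcam, those were 70 cells with 1383922 UMIs and 20 cells with 684819. Against this set the goblet list median was -2.31 and the enterocyte median -3.00. The other set is the 3265 Epcam cells of the adult library (all genes -0.20), where 7.19% were higher and 17.6% lower. That set was also rich in endocrine and tuft transcripts. Its enteroendocrine list summed to 94261 CPM and its tuft list to 2473, against 141300 and 1374 in the other irradiated Epcam cells. Ratios against the adult set thus carry a difference in cell kind as well.

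The 15 most enriched genes ran from AC167229.1, an unnamed locus (log2 ratio 5.69), to Sprr2a3 (4.57). They included the annexins Anxa8 (5.47) and Anxa1 (5.07), Ly6d (5.14), a relative of Ly6a, the keratin Krt15 (5.11), the potassium channel gene Kcnn4 (5.20) and Il1rn (4.84), the interleukin-1 receptor antagonist. Clca3b (4.65), Slc4a11 (4.60), Atg9b (4.65) and Mpzl2 (4.58), an adhesion molecule, were also in the group. Olfm4 (4.92), a crypt stem cell product, and the mitotic genes Top2a (4.69) and Cenpf (4.58) were also among them. These genes are ranked by the ratio itself, over 1 library. Against the 272 cells outside the endocrine, tuft and Paneth clusters, all 15 were still higher, from 1.28 for Sprr2a3 to 4.38 for AC167229.1.

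Anxa8 stood at 80.8 CPM (74.1 to 88.0) in the cells of the rule and 0.845 in the other Epcam cells. Krt15 stood at 132 against 2.83 CPM, and Il1rn at 81.0 against 1.87. Each was detected in fewer than all of the cells: Anxa8 in 42.1%, Krt15 in 37.7%, Il1rn in 43.2% and Kcnn4 in 54.6%. After thinning, Krt15 was still found in 16.4% of the cells of the rule and in 1.06% of the others.

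The adult library separated these genes into groups. Anxa8 and Ly6d had 0 UMIs among 3265 adult Epcam cells, so that against a floor of 3 UMIs over all of them Anxa8 was at least 828-fold and Ly6d at least 961-fold higher in the cells of the rule. Anxa1, Il1rn and Atg9b had 1 UMI each there, and AC167229.1 had 3. Kcnn4 was present at 37.0 CPM in the adult cells and Clca3b at 173, and their log2 ratios against the adult were 1.62 and 0.11. Olfm4 was lower in the cells of the rule than in adult cells (-3.41, 55.0 against 595 CPM), while Top2a (-0.06) and Cenpf (-0.49) were near adult levels or under them.

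The 10 lowest named genes included 3 that encode hormones or neuropeptides. Sct, the hormone secretin, was 1696 CPM against 27459 (log2 ratio -4.02), and Nts, neurotensin, 151 against 1888 (-3.64). Cartpt, a neuropeptide gene, was 10.3 against 176 CPM (-3.97). The others were Serpina1e, Smad6, Rflna, Stxbp5l, Serpina1c, Mgll and Etv1, from -3.97 to -3.62. All 22 enteroendocrine markers were at least 2-fold lower (list median -2.87), with the comparison cells being largely endocrine. Of 14 tuft markers 12 were at least 2-fold lower (median -1.81). Over all genes 18.4% were at least 2-fold lower.

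Hormone transcripts were nevertheless found in every cell of the rule. Sct had a UMI in 100% of the 183 cells before thinning. Among cells of at least 2000 UMIs, Gip, Cck and Sct each had a UMI before thinning in 100% of 159 cells of the rule. The same held for 98.7% to 100% of such cells in the tuft-like and Paneth-like clusters, which should lack them. After thinning, Sct was found in 59.7% of the cells of the rule, 91.3% of tuft-like cells and 57.0% of Paneth-like cells. The share in all cells of the rule together lay between those of the cells that should lack the hormone, but it differed by cluster. It was 42.7% (31.8 to 54.1) of the 82 cells of the rule in cluster 11, below both shares. In cluster 15 it was 27 of 27 (100%, 87.2 to 100), above both. The cluster 11 interval overlapped the Paneth-like one (45.8 to 67.6), and the cluster 15 interval overlapped the tuft-like one (86.9 to 94.6). The enteroendocrine list summed to 11474 CPM in the cluster 11 cells, 68773 in the shallow cluster 15 cells and 78723 in the 33 others, against 5837 in the Paneth-like, 9960 in the tuft-like and 213805 in the enteroendocrine-like clusters. Of the cells of the rule, 22 lay in clusters scoring highest for enteroendocrine markers. The part of free RNA in these values was not tested.

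**Figure D2:**
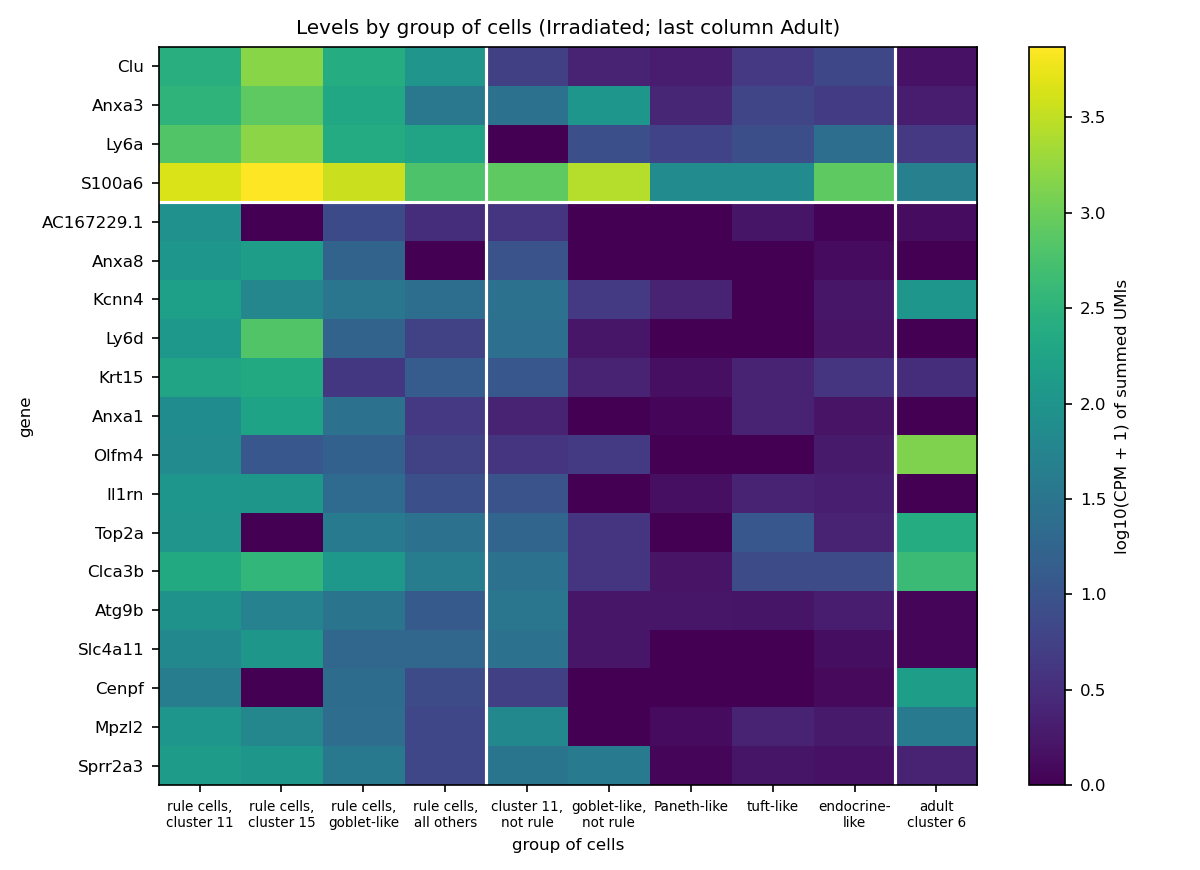
Level of each gene (colour), as log10(CPM + 1) of UMIs summed over the cells. The first 4 columns are the cells of the rule by cluster, followed by other irradiated clusters. The last column is adult cluster 6, which scored highest for enterocyte markers and also held crypt stem and G2/M transcripts. Anxa8, Ly6d, Krt15 and Il1rn are high in cluster 11 and cluster 15 cells of the rule and at or near 0 in the Paneth-like, tuft-like and endocrine-like columns, while Olfm4, Top2a and Cenpf are highest in the adult column.

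Genes listed for the regenerative epithelium (26 genes, without the 3 of the rule) had the second highest median of all lists. Of 23 measured, 20 were at least 2-fold higher in the cells of the rule and 1, Basp1, was at least 2-fold lower, with a median of 2.81 (counting interval 2.50 to 3.17). Of all genes, 13.4% were at least 2-fold higher. The other 3 had too few UMIs to be measured. Areg, which encodes the epidermal growth factor receptor ligand amphiregulin, stood at 449 CPM against 28.5, S100a11 at 1358 against 193, and Anxa2 at 1666 against 192. Emp1, a membrane protein, stood at 84.9 against 3.5 CPM and Il33, an alarm cytokine, at 85.7 against 3.97. Plaur, the urokinase receptor, stood at 33.4 against 2.80 CPM.

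The size of that difference depended on the comparison cells. Against the Epcam cells outside the endocrine, tuft and Paneth clusters the median was 1.02, with 12 of 24 genes at least 2-fold higher against 10.8% of all genes. Among cells of at least 20000 UMIs in both sets (111 and 287 cells) it was 2.89, with 20 of 24 higher against 25.1% of all genes (7.92% of all genes were at least 2-fold lower). Against adult Epcam cells it was 3.33, with 19 of 23 higher against 7.19% of all genes. Of all genes there, 17.6% were at least 2-fold lower. Of the 23 measured genes, 3 had 0 UMIs in the adult set.

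The regenerative list summed to 10860 CPM in the cluster 11 cells, 19708 in the cluster 15 cells, 7577 in the goblet-like cells and 2113 in the 33 others. In cells of the same clusters that did not meet the rule, the list was also present. It summed to 3526 CPM in 20 cells of cluster 11, 15627 in 29 of cluster 15 and 5365 in 70 goblet-like cells. Its members did not move as 1 block. Areg was 570 CPM in cluster 11 cells, 256 in goblet-like cells and 91.7 in cluster 15 cells, whereas Ly6d was 115, 15.9 and 662. Il33 stood at 114 CPM in cluster 11 cells, 183 in cluster 15 cells and 12.7 in goblet-like cells. In cells of the goblet-like cluster that did not meet the rule, S100a6 was still 2749 CPM and Anxa3 105, but Anxa8, Anxa1 and Il1rn had 0 UMIs.

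Of the YAP and TEAD targets, 9 of 17 measured were at least 2-fold higher (13.4% of all genes) and 1 was lower (18.4% of all genes), with a median of 1.29 (0.66 to 1.71). Ctgf, a secreted matrix-associated factor, stood at 10.7 CPM against 0.117, from 71 and 4 UMIs. F3, tissue factor, stood at 40.8 against 2.16, and Ajuba, a LIM-domain adaptor, at 18.4 against 1.54. Yap1 itself was 22.5 against 4.90 CPM and Wwtr1, which encodes TAZ, 5.89 against 0.437. Cyr61, another standard target, was 43.7 against 24.9, a log2 ratio of 0.79, and Nt5e was lower (-3.26). Without the cells of the rule that held 3 or more G2/M UMIs before thinning the median of the list was -0.01, over 13 measured genes. That setting left out 72 cells, 55 of them of the deep cluster 11. Cluster, depth and the genes measured thus changed with it, and their parts were not tested. Against the 272 cells outside the endocrine, tuft and Paneth clusters the list median was 0.44, with 5 of 16 at least 2-fold higher (10.8% of all genes) and 1 lower. Against adult Epcam cells it was 0.98, with 7 of 17 higher (7.19% of all genes) and 2 lower (17.6%).

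Of the ligands and receptors of the epidermal growth factor family, 3 of 11 were at least 2-fold higher, namely Areg, Ereg and Btc, and 1 was lower, against 13.4% and 18.4% of all genes. The list median was 0.43, and it was -0.0019 when CPM was averaged over cells. It was 0.24 against the 272 cells and 0.15 against adult Epcam cells. Btc, betacellulin, stood at 83.4 CPM against 9.30, and Ereg, epiregulin, at 13.2 against 0.70. The receptor Egfr had a log2 ratio of 0.17, Erbb2 one of 0.43 and Erbb3 one of -0.39. Errfi1, a feedback inhibitor of the receptor, was lower (-1.58).

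Targets of p53 were divided by the comparison. Against the other irradiated Epcam cells 9 of 23 were at least 2-fold higher and 2 were lower (median 0.73). Over all genes 13.4% were higher and 18.4% lower. Cdkn1a, the cell cycle inhibitor p21, was 824 CPM against 903. Against the 272 cells outside the endocrine, tuft and Paneth clusters 7 of 22 were higher and 0 lower (median 0.72). The shares of all genes there were 10.8% and 5.0%. Against adult Epcam cells 17 of 23 were at least 2-fold higher and 2 were lower (median 1.85). The shares of all genes against the adult were 7.19% and 17.6%. Phlda3 was 220 CPM against 1.95. Ccng1, cyclin G1, was 317 CPM against 151 in other irradiated and 22.6 in adult Epcam cells. Mdm2, which encodes the ligase that degrades p53, was 202, 73.5 and 31.0 CPM in the same order. Gdf15 was 155, 68.0 and 14.6 CPM. The 3 genes thus stood in 1 order, with the cells of the rule highest and the adult cells lowest, whereas Cdkn1a was highest in the other irradiated cells and was 376 CPM in adult cells.

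Immediate early genes, which respond within minutes to stimuli and to dissociation, were mostly lower than in the other irradiated Epcam cells. Of 15, 9 were at least 2-fold lower and 2 (Ier3 and Myc) at least 2-fold higher, with a median of -1.27. Over all genes 18.4% were lower and 13.4% higher. Fos was 559 CPM against 1351 and Egr1 270 against 782, while Myc was 42.8 against 3.99. Among cells of at least 20000 UMIs the median was -0.49, with 0 of 15 at least 2-fold lower, against 7.92% of all genes. Against the 272 cells outside the endocrine, tuft and Paneth clusters it was -0.34. There 1 of 15 was lower and 2 were higher, beside 5.0% and 10.8% of all genes. Against adult Epcam cells it was -0.93, with 6 lower and 2 higher, beside 17.6% and 7.19% of all genes.

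Of the interferon response genes 5 of 27 were at least 2-fold higher and 3 lower, against 13.4% and 18.4% of all genes, with a median of -0.05. These shares lie near those of all genes. The median was -0.37 against the 272 cells and -0.64 against adult Epcam cells, where 8 of 27 were lower (17.6% of all genes). Ifitm3, a membrane protein that restricts viruses, was 341 CPM against 64.2, and was 449 CPM in adult cluster 6 (described below). Of the inflammatory and antimicrobial genes, 7 of 14 were at least 2-fold higher and 0 lower, against 13.4% and 18.4% of all genes. Cxcl16, a membrane-bound chemokine, was 102 CPM against 11.5 and Cxcl10 was 18.0 against 1.81. Reg3b and Reg3g, antimicrobial lectins, had log2 ratios of 0.42 and 0.51. Against the 272 cells outside the endocrine, tuft and Paneth clusters the median of this list changed from 0.78 to -0.54.

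Among keratins, claudins and adhesion genes 11 of 26 were at least 2-fold higher and 1, Krt20, was lower (median 0.80). Over all genes 13.4% were higher and 18.4% lower. Against the 272 cells 4 of 26 were higher (median 0.39), beside 10.8% of all genes. Against adult Epcam cells 9 of 26 were higher (median 0.65), beside 7.19% of all genes. Krt19, a simple-epithelium keratin, was 4593 CPM against 1119, and Cldn2, a pore-forming claudin of crypts, 198 against 48.5. The integrin chains Itgb4 and Itgb6 stood at 110 against 20.6 and 33.7 against 2.92 CPM. Krt20, a marker of differentiated cells, was 124 against 564. Cd44, a hyaluronan receptor of crypt cells, was 171 against 50.7.

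**Figure D3:**
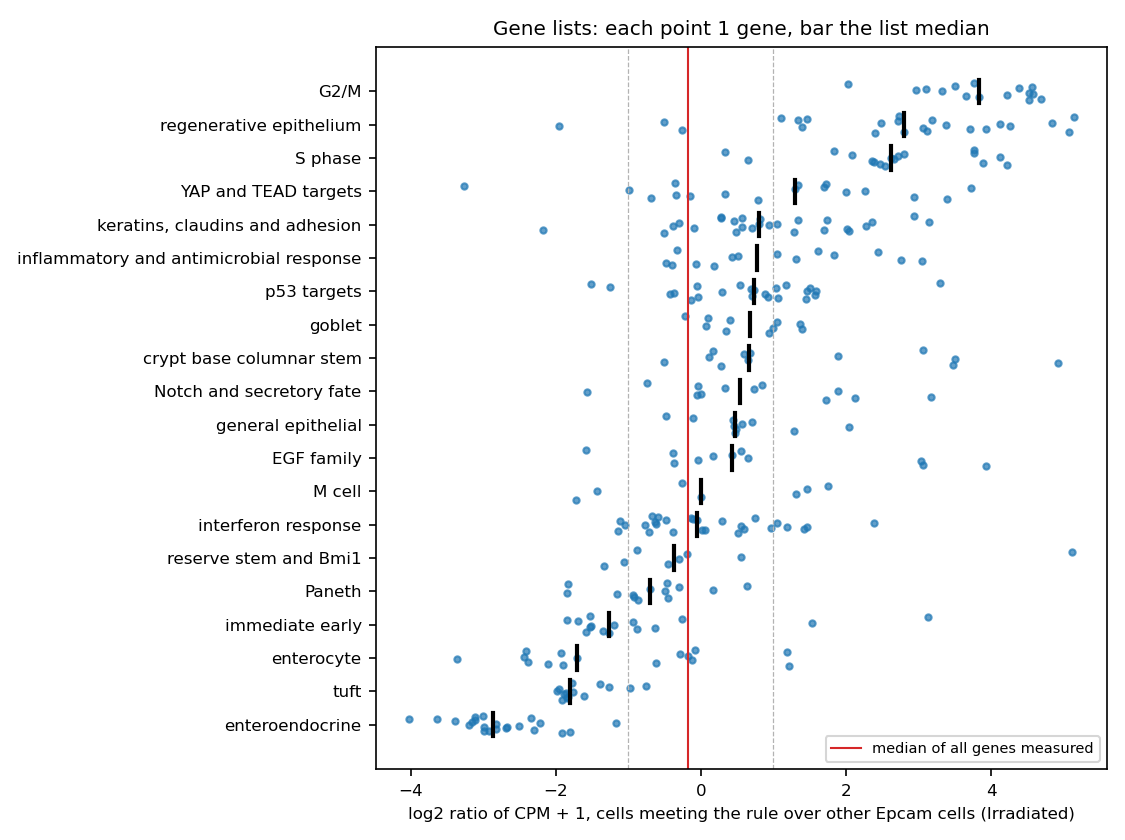
Log2 ratio of CPM + 1 between the 183 cells of the rule and the other 2770 irradiated Epcam cells for each measured gene of each list (points), with the list median (black bar). The G2/M and regenerative lists have the highest medians (3.84 and 2.81) and the enteroendocrine list the lowest (-2.87), against -0.18 for all genes (red line); dashed lines mark 2-fold.

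Stem cell genes of the crypt base differed by gene and by comparison. Of 12, 5 were at least 2-fold higher (Ascl2, Olfm4, Slc12a2, Cdca7 and Tnfrsf19) and 0 lower, with a median of 0.67, and 7 were within 2-fold. Over all genes 13.4% were higher and 18.4% lower. Against the 272 cells outside the endocrine, tuft and Paneth clusters the median was 0.87, with 5 higher (10.8% of all genes). Against the adult cells the median was -0.14, with 1 higher (Tnfrsf19) and 1 lower (Olfm4), beside 7.19% and 17.6% of all genes. Lgr5, the receptor that marks the cycling stem cell, was 8.92 CPM (6.79 to 11.5) against 7.17 in the other irradiated and 12.1 in the adult cells. Hes1, a Notch target, was 78.7 CPM against 7.81 in other irradiated and 41.4 in adult cells. Slc12a2, an ion cotransporter of crypt cells, was 254, 21.5 and 134 CPM in the same order.

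The direction of Bmi1 depended on the comparison cells. It was 5.74 CPM (4.06 to 7.88) against 16.0 (14.7 to 17.4), and after thinning it was found in 0.629% of them and in 3.81% of the others. Transcripts of the reporter eGFP were 9.37 CPM (7.18 to 12) against 13.2 (12 to 14.5), and 1.79 in adult Epcam cells. In the 272 cells outside the endocrine, tuft and Paneth clusters Bmi1 was 7.25 CPM, a log2 ratio of -0.29, and with the Paneth clusters kept in that set the ratio turned to 0.40. The log2 ratio of eGFP likewise changed from -0.45 to 0.79 in that set, and it was 0.29 among cells of at least 20000 UMIs and 1.89 against adult cells. The order of Bmi1 levels was other irradiated, adult (11.4) and then the cells of the rule. Of other genes listed for reserve stem cells, Hopx was 204 against 427 CPM and Tert 2.27 against 3.03, with overlapping intervals for Tert.

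Summed over cells, mitotic and S-phase genes were higher than in the other irradiated cells and near the adult level. All 15 G2/M genes were at least 2-fold higher against the irradiated cells (median 3.84), with Mki67 at 62.3 CPM against 1.75. Of 17 S-phase genes 15 were (median 2.63), and 13.4% of all genes. Against the adult Epcam cells 0 of 15 G2/M genes were past 2-fold in either direction (median 0.22), with Mki67 at 80.4 CPM in the adult cells. Of the 17 S-phase genes 1 was at least 2-fold higher than in the adult and 0 lower (median 0.46). The shares of all genes against the adult were 7.19% and 17.6%.

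After thinning to 2000 UMIs, 25 of 159 cells of the rule (15.7%, 10.4 to 22.3) held at least 3 UMIs of G2/M genes. In the other Epcam cells it was 11 of 2442 (0.450%), and in adult Epcam cells 117 of 2838 (4.12%, 3.42 to 4.92). By share of cells at equal depth the cells of the rule thus stood above the adult Epcam cells, unlike their summed levels. That adult set was rich in endocrine and tuft transcripts, as given above. The G2/M list summed to 1672 CPM in adult cluster 6 and 577 over adult Epcam cells, against 877 in the cluster 11 cells of the rule. The share of cells at equal depth was not measured for adult cluster 6 alone. Without thinning the share in the cells of the rule was 39.3%. Most of these cells were in cluster 11, where 21 of 82 cells (25.6%, 16.6 to 36.5) passed. In cluster 15 it was 0 of 27, which allows up to 12.8% by the exact interval, in the goblet-like cluster 1 of 20 and elsewhere 3 of 30. In the tuft-like cluster it was 1 of 230 cells (0.435%), and the part of free RNA was not tested.

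**Figure D4:**
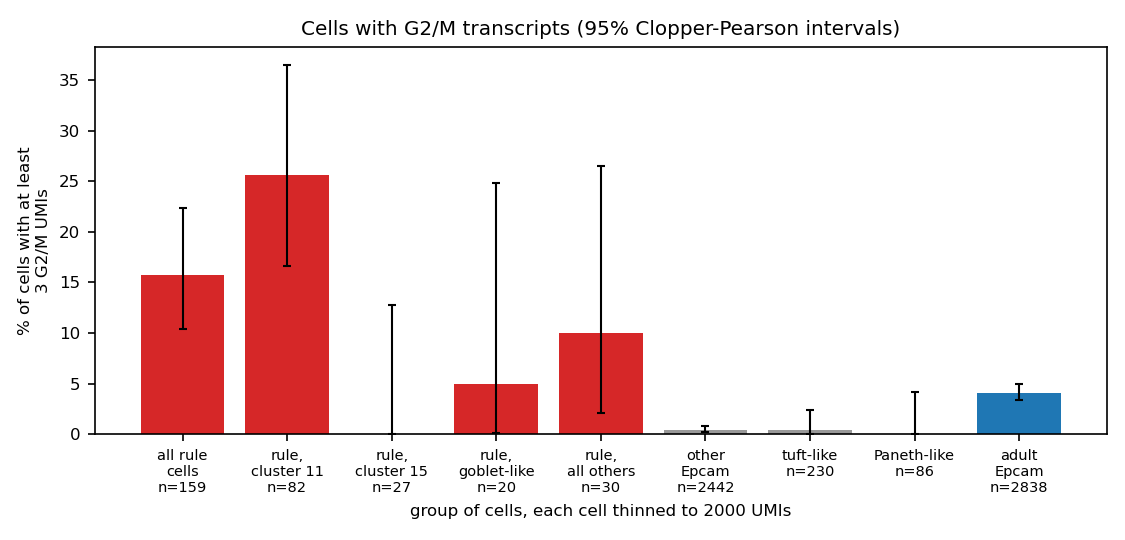
Percentage of cells with at least 3 UMIs of 15 G2/M genes after each cell was thinned to 2000 UMIs (bars, with exact 95% Clopper-Pearson intervals and the number of cells) in cells of the rule (red), other irradiated cells (grey) and adult Epcam cells (blue). Cluster 11 has the highest value, 25.6%, and cluster 15 has 0 of 27 cells.

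The cells of the rule that held at least 3 G2/M UMIs after thinning differed from those that held fewer in some of the injury genes. Before thinning 72 cells held at least 3, so the second group also holds cells with G2/M transcripts. Il33 was 36.7 CPM (27.8 to 47.7) in the 25 cells with at least 3 and 100 (91.8 to 109) in the 134 with fewer, and Ly6d was 35.4 (26.6 to 46.2) and 108 (99.6 to 118). S100a6 was 2932 and 4074 CPM. Slc12a2 was higher in the 25 cells, at 398 (367 to 431) against 211 (198 to 224), as was Hes1, at 124 against 65.3. Clu (278 against 241), Areg (478 against 443) and Krt15 (132 against 132) differed little. The cells were split by G2/M genes alone, and 21 of the 25 are of cluster 11.

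Endothelial, immune and mesenchymal markers were low in summed level, and those of other cell kinds differed by kind. Of 10 endothelial markers 6 were at 0 UMIs in the 183 cells, among them Cdh5, Kdr and Tie1, and the list summed to 14.1 CPM against 34.8 in the other Epcam cells. Of 15 immune markers 8 were at 0, among them Cd3g, Laptm5 and Tyrobp, and the list summed to 37.0 CPM against 27.6, mostly from Cd74 (30.7 CPM), an antigen-presentation gene that epithelial cells also express. Ptprc, the common leukocyte antigen, had 30 UMIs. Of 13 mesenchymal markers 6 were at 0, and Vim accounted for nearly all of the sum of 144 CPM against 193. M-cell markers had a median of 0.00, and the list summed to 667 CPM against 520. Paneth markers had a median of -0.70, and the list summed to 53974 CPM against 124601. Goblet markers had a median of 0.67 and were carried by the goblet-like cells, since the list summed to 1672 CPM in the cluster 11 cells and 216432 in those 20 cells, and without the cells outside clusters 11 and 15 the median was -3.17. Enterocyte markers were lower (median -1.71), with Apoa1 at 110 against 416 CPM.

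In the adult library, cluster 6 (208 cells) scored highest for enterocyte markers (0.884) but also 0.724 for crypt base stem markers. Its G2/M list summed to 1672 CPM, so it is called by its number. It had a median of 37106.5 UMIs, and 26 of its cells were putative doublets. Of the 208 cells, 0 met the rule. They held 0.552 CPM of Clu, 0.993 of Anxa3, 3.42 of Ly6a and 46.8 of S100a6, but 1316 of Olfm4 and 249 of Top2a.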

How the data were processed

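Droplet libraries of RNA 3' ends (10x Chromium, version 3 reagents, per the labels' protocols) were analysed, and Cell Ranger 3.1.0 and the mm10 build are named in the submitters' processing notes. The authors deposited raw UMI counts per gene and cell barcode, without normalization. Groups follow the sample titles. Library totals were 90674425 UMIs (E12.5), 77677622 (E17.5), 38648331 (adult) and 50761353 (irradiated). Coordinates are from GENCODE for GRCm38, which matched 30934 of 31054 features, and promoters from RefSeq.

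A cell was kept if it had 500 genes or more and if mitochondrial transcripts were 20% of its UMIs or less. The rule, the gene lists and the comparisons were chosen with earlier results of these data known, so no list is independent support. UMIs were summed over each set of cells. Ratios are log2 of (CPM + 1) for genes with at least 20 UMIs in both sums together and at least 5 expected in the cells of the rule. The interval first planned for a ratio, a binomial split of the sums, ignores the pseudocount and left some point values outside it, so after the values were seen it was replaced by one that sets both sums at their Poisson bounds. A list's interval is the median of its genes' bounds: for the regenerative list (median 2.81) the planned interval was 3.22 to 3.94 and the one used 2.50 to 3.17. Named genes were the 15 highest and 10 lowest ratios among genes with at least 40 UMIs in the higher set and a UMI in 10% of its cells, leaving out mitochondrial, ribosomal, haemoglobin, immunoglobulin, sex-linked and predicted genes (Gm and Rik names only, so that other unnamed loci stay in). Thinned values use 2000 UMIs per cell. Lists are described without tests.

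Clustering (scanpy 1.11.5, leidenalg 0.10.2, Leiden resolution 1) used 2000 variable genes, 30 components and 20 neighbours, with Clu, Anxa3 and Ly6a left out. A cluster was named from marker lists if its highest scaled score was at least 0.5 with at least 7 markers, thresholds set after the clusters were seen, and 3 of the 12 clusters scoring highest for enteroendocrine markers kept no name because of their leading genes or depth. Doublets were scored with Scrublet, and the highest scores at 0.8% per 1000 barcodes were marked but kept except in an alternative. On simulated counts with 200 changed genes out of 10934, 100% of the changed genes had the right direction, at folds of 0.25, 0.5, 2 and 4. Those genes had at least 20 expected UMIs, and the counts held no spread between cells and no difference in cell kind. The simulation thus checks the calculation of a ratio only. Alternatives changed the rule, cell filter, depth, comparison cells, pseudocount, gene filter and scaling (edgeR 4.0.16 for TMM). Values of a few list members are not reported here.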

Additional observations from a re-analysis of the deposited data

How the results depend on the processing

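No paired analysis was possible because each group has 1 library and no test was run. Over 13 alternatives the share of irradiated cells that met the rule ran from 1.64% (thinned to 2000 UMIs) to 7.88% (any 1 gene with 4 UMIs). It was 1.81% at 4000 UMIs, 7.79%, 6.66%, 4.71% and 4.21% at 2, 3, 6 and 8 UMIs, 3.42% with all 3 genes, 3.79% over every deposited barcode and 4.08% counting only cells in clusters 11 and 15. The adult share was 0.211% with any 1 gene.

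Over 20 alternatives the regenerative median kept its sign. It was 3.19 without mitochondrial, ribosomal and Defa genes in the totals, 3.53 and 1.76 with pseudocounts of 0.1 and 10, 1.02 outside the enteroendocrine, tuft and Paneth clusters, 3.33 against adult cells and 3.24 with the cells of clusters 11 and 15 alone. The G2/M median was 4.36 with the stricter cell filter, 2.45 with CPM averaged over cells, 4.34 without mitochondrial, ribosomal and Defa genes, 4.72 and 2.04 with pseudocounts of 0.1 and 10, 3.1 outside the enteroendocrine and tuft clusters, 1.61 without Paneth clusters too, 0.22 against adult cells, 4.36 with clusters 11 and 15 alone and 0.46 without cells holding 3 or more G2/M UMIs, as that setting removes such cells. The p53 median was 0.44 with CPM averaged over cells, 1.59 outside the enteroendocrine and tuft clusters, 1.16 at 20000 UMIs or more, 1.85 against adult cells, 1.00 with clusters 11 and 15 alone and 0.49 without G2/M cells. The enteroendocrine median was -3.30 at 8 UMIs, -3.21 with all 3 genes, -1.74 with CPM averaged over cells, -2.53 with a pseudocount of 10, -0.49 outside the enteroendocrine, tuft and Paneth clusters, -2.14 at 20000 UMIs or more, -1.99 against adult cells, -3.33 with clusters 11 and 15 alone and -2.07 without G2/M cells.

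Counts of genes at least 2-fold higher and lower were 919 and 808 with a pseudocount of 10 and 7014 and 159 outside the enteroendocrine and tuft clusters. Counts higher were 3075 at 20000 UMIs or more, 953 against adult cells and 1004 without G2/M cells, and counts lower were 556 outside the enteroendocrine, tuft and Paneth clusters and 969 at 20000 UMIs or more.

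Signs that reversed although the counting interval of the main value excluded 0 were as follows. Outside the enteroendocrine and tuft clusters the medians were 0.71 (enteroendocrine), 0.60 (tuft), 0.54 (immediate early), -0.68 (goblet), 0.59 (endothelial) and 1.38 (mesenchymal), and single genes were 0.40 (Bmi1), 0.087 (Etv1), 0.23 (Nts) and 0.0070 (Rflna). With Paneth clusters left out too they were -2.31 (goblet), 0.11 (endothelial) and -0.54 (inflammatory). Goblet was -1.43 with all 3 genes, -0.057 at 20000 UMIs or more and -3.17 with clusters 11 and 15 alone. With CPM averaged over cells the medians were -0.0019 (EGF family), 0.30 (Paneth) and 0.042 (mesenchymal). Against adult cells they were 0.27 (Paneth), -0.14 (crypt base stem), 2.35 (mesenchymal), -3.41 (Olfm4), -0.064 (Top2a) and -0.49 (Cenpf). Without G2/M cells they were -0.012 (YAP and TEAD) and 0.043 (mesenchymal). Values whose interval included 0 also changed sign, among them the M cell and Notch medians. Outside the enteroendocrine and tuft clusters interferon was 0.85, reserve stem 0.90, immune 1.46 and eGFP 0.79, eGFP was 1.89 against adult cells, and of 20 alternatives the sign was kept in 13 (immune), 15 (interferon), 17 (eGFP) and 18 (reserve stem). The cause of these shifts was not tested. Settings on clusters 11 and 15, G2/M cells and 20000 UMIs were chosen after seeing the data. Depth limits the 48 cluster 15 cells of the rule most, since they held 98134 UMIs together.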

Other observations

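The same rule was met in both embryonic libraries, by 151 of 4226 kept cells at E12.5 (3.57%, 3.03 to 4.18) and 141 of 4602 at E17.5 (3.06%, 2.59 to 3.6). After thinning to 2000 UMIs it was met by 1 of 3655 and 32 of 4412 cells. The genes that carried the rule differed: Ly6a was detected in 171 of the 183 irradiated cells, but in 54 of the 151 cells at E12.5 and 39 of the 141 at E17.5. Clu was the most abundant of the 3 at E17.5, at 1064 CPM (1017 to 1113), against 121 at E12.5 and 258 in the irradiated cells.

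Other genes of the irradiated cells were unevenly shared with the embryonic ones. S100a6 stood at 47.7 CPM in the E12.5 cells of the rule, 923 at E17.5 and 3824 after irradiation, and S100a11 at 234, 1410 and 1358. Anxa1 was higher at E17.5 (171 CPM, 152 to 191) than after irradiation (59.2, 53.5 to 65.4), as was Msln, mesothelin, at 74.7 against 3.17 CPM. Summed levels of markers of other cell types moved with these at E17.5, but came from few cells. Upk3b, a mesothelial gene, was 60.8 CPM in the cells of the rule and 11.3 in the other Epcam cells. It was detected in 7 of the 141 cells (4.96%), a lower share than the 13.0% of the other Epcam cells. Col3a1, a collagen of mesenchymal cells, was 117 and 14.3 CPM, detected in 11 cells (7.80%) and in 2.65% of the others. Both had 0 UMIs in the irradiated cells of the rule. The part of these markers in the difference was not tested. Krt15 (5.53, 4.46 and 132 CPM), Il33 (1.11, 7.25 and 85.7), Anxa8 (3.32, 7.25 and 80.8) and Areg (0, 35.7 and 449) were highest in the irradiated cells, with Il1rn at 0.184, 1.67 and 81.0 CPM. Each library is 1 sample, so age, radiation and library cannot be told apart here.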
